A study of Homo sapiens with 2 samples.

Results

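The ERBB receptors and the ligands of the EGF family were compared between OECM1 cells that carry a let-7i vector and OECM1 cells that carry the empty vector. Members were all probe sets whose platform gene symbol was EGFR, ERBB2, ERBB3, AREG, EREG, TGFA, HBEGF, BTC, EPGN or NRG1. This gave 34 of 54675 probe sets, which name 8 of the 10 genes. No probe set with 1 gene symbol was named for AREG or EPGN, and probe sets with several symbols were not used. These ligands are therefore not analysed here. OECM1 is a long-established line of head and neck cancer cells, grown in RPMI with fetal bovine serum. One line was stably transfected with pmCherry-let7i, which expresses the microRNA let-7i, and the other with the pmR-mCherry vector without an insert. Whether a line is 1 clone or a pool is not given in the sources used here. Each group had 1 array, so no difference below has a replicate check, and no p-value or SD between cultures is given.

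The ERBB receptors are tyrosine kinases at the cell surface that pair with each other once a ligand binds. EGFR binds most EGF family ligands, ERBB2 has no known soluble ligand and acts as a partner, and ERBB3 binds neuregulins but has a weak kinase of its own. The ligands are made as membrane proteins and are cut free by proteases, and in squamous epithelium and its carcinomas the receptors drive growth through the ERK and PI3-kinase pathways.

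The expressed microRNA is shown first, since it is the one difference the labels give between the lines, with its seed (bases 2 to 8) in capitals. The sequence is from RefSeq (GRCh38.p14, chr12:62603691-62603712, plus strand).
hsa-let-7i-5p: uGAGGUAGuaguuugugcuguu
No probe set was named for the let-7i gene, so its level does not check the labels.

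Signals were MAS5 intensities scaled to a common mean on each array. The floor, below which a signal was treated as not measured, was the median of all probe sets, 79.5 on the let-7i array and 88.0 on the empty vector array. Of the 34 probe sets, 15 were at or above the floor on both arrays, 3 on 1 array and 16 on neither. Ratios are let-7i vector over empty vector on the log2 scale, and a ratio with 1 signal below the floor is a bound. Over the 2 brightest probe sets of 5807 genes with 2 or more measured, the SD of 1 probe set's log2 ratio was 0.25. The SD ran from 0.34 for the dimmest of these genes to 0.15 for the brightest, ranked by the dimmer of the 2 probe sets. It covers probe noise and no variation between cultures.

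**Figure D1:**
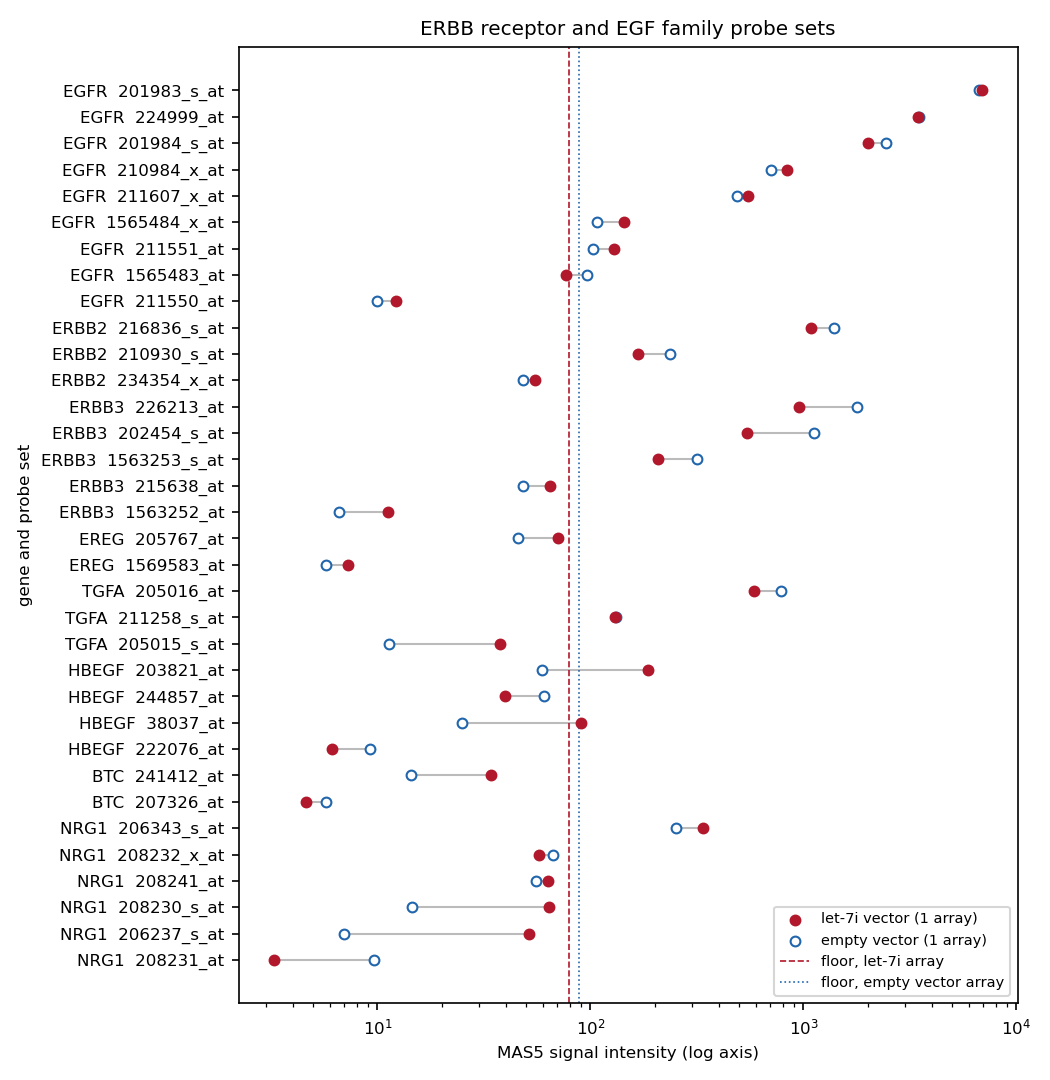
MAS5 signal (log axis) of each of the 34 probe sets on the let-7i array (filled points) and on the empty vector array (open points), 1 array each, with the floors of 79.5 and 88.0 as vertical lines. ERBB3 is the gene whose points lie furthest apart among those measured on both arrays, and the 2 HBEGF probe sets that reach the floor do so on the let-7i array alone.

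ERBB3 was lower with let-7i, ERBB2 was lower by less, and EGFR differed by less than the probe noise in its brightest probe set. Among the ligands, HBEGF was above the floor with let-7i alone, NRG1 was higher, TGFA was lower, and EREG and BTC were below the floor on both arrays. Of the 18 member probe sets above the floor on at least 1 array, 1 was at least 2-fold higher (an HBEGF probe set), against 0.982% of the 23919 such probe sets of all genes. Likewise 1 was at least 2-fold lower (an ERBB3 probe set), against 1.39% of all. Among the 15 measured on both arrays 6 were higher and 9 lower, and 52.6% of the 21442 such probe sets of all genes were lower. The median absolute log2 ratio was 0.35 for the 15, against 0.19 for all 21442. The 15 belong to 5 genes, 7 of them to EGFR, which supplies 5 of the 6 higher. Probe sets of 1 gene are not separate members, so these counts and this median do not describe the family gene by gene. With a gene taken as its brightest probe set, 6 member genes passed the floor on 1 or both arrays. Of these 3 were higher and 3 lower, with a median log2 ratio of -0.15, against -0.01 for all 12284 such genes. The median of so few genes moved with the setting, to -0.36 with the 65th percentile as floor, -0.05 with means over probe sets and 0.25 with the 25th percentile as floor. By gene, HBEGF was past 2-fold higher, against 1.06% of all genes, and 0 members were past 2-fold lower, against 1.38% of all genes. In such bulk RNA, fewer cells that express a gene and less RNA per cell cannot be told apart.

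**Figure D2:**
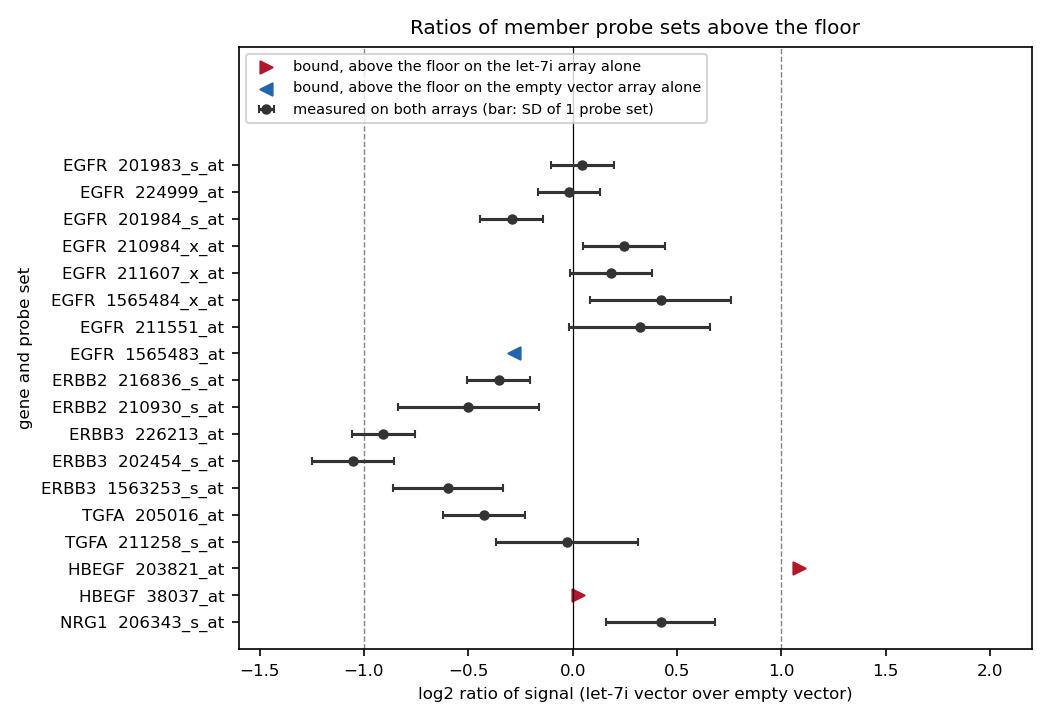
Log2 ratio (let-7i vector over empty vector) of the 18 member probe sets above the floor on at least 1 array, with bars for the SD of 1 probe set at that signal, triangles for bounds and dashed lines at 2-fold. The 3 ERBB3 probe sets lie between -1.05 and -0.60, those of EGFR lie on both sides of 0, and the HBEGF bounds lie at 1.09 and 0.03.

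ERBB3, the neuregulin receptor with a weak kinase, showed the lowest ratio of the receptors. Its brightest probe set, 226213_at, had a signal of 957 with let-7i and 1790 with the empty vector, a 1.88-fold lower level (log2 ratio of -0.91). Probe set 202454_s_at had 543 with let-7i and 1125 with the empty vector, 2.08-fold lower (log2 ratio of -1.05). Probe set 1563253_s_at had 208 with let-7i and 315 with the empty vector, 1.51-fold lower (log2 ratio of -0.60). All 3 measured probe sets thus pointed the same way, with ratios of -0.60 or lower, where the SD of 1 probe set at these signals was between 0.15 and 0.26. The remaining probe sets, 215638_at (64.4 with let-7i and 48.0 with the empty vector) and 1563252_at (11.3 with let-7i and 6.60 with the empty vector), were below the floor on both arrays and give no ratio. Among the 11140 genes measured on both arrays, 176 (1.58%) had a ratio as low as the brightest probe set of ERBB3 or lower. Of 2689 genes with 3 or more measured probe sets, 561 (20.9%) were lower in all of them and 31 (1.15%) were lower by 0.5 or more in all of them, a limit chosen after the values of ERBB3 were seen. The 2-fold call rests on a probe set that can match several transcripts.

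ERBB2, the receptor without a known soluble ligand and the usual partner of ERBB3, was lower by less. Probe set 216836_s_at had 1086 with let-7i and 1385 with the empty vector, 1.28-fold lower (log2 ratio of -0.35, against an SD of 0.15). The dimmer 210930_s_at had 167 with let-7i and 236 with the empty vector, 1.42-fold lower (log2 ratio of -0.50, against an SD of 0.34). Both pointed the same way, but 13.0% of the genes measured on both arrays had a ratio as low or lower. The third probe set, 234354_x_at, had 55.0 with let-7i and 48.1 with the empty vector and was below the floor.

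EGFR, the receptor of most EGF family ligands, had 9 probe sets, 7 of them measured on both arrays. The brightest, 201983_s_at, had 6899 with let-7i and 6669 with the empty vector (log2 ratio of 0.05). Probe set 224999_at had 3439 with let-7i and 3474 with the empty vector (log2 ratio of -0.02), and 201984_s_at had 2002 with let-7i and 2447 with the empty vector (log2 ratio of -0.29). The 3 brightest probe sets thus gave no common direction. The 4 dimmer ones were all higher with let-7i, with log2 ratios of 0.24 for 210984_x_at (840 with let-7i and 707 with the empty vector), 0.18 for 211607_x_at (552 with let-7i and 486 with the empty vector), 0.42 for 1565484_x_at (143 with let-7i and 107 with the empty vector) and 0.32 for 211551_at (129 with let-7i and 103 with the empty vector). Their ratios are at most 1.25 times the SD of 1 probe set at these signals. The SD among the 7 ratios was 0.24, near the median SD of 0.21 over the 167 genes with 6 or more measured probe sets, of which 68 had a larger one. Probe set 1565483_at (76.6 with let-7i and 96.3 with the empty vector) gave a bound of -0.28, and 211550_at (12.2 with let-7i and 9.95 with the empty vector) was below the floor.

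HBEGF, a heparin-binding ligand of EGFR and ERBB4, had the highest ratio of the family. Probe set 203821_at had 187 with let-7i and 59.3 with the empty vector. The empty vector signal was below the floor, so the level was at least 2.12-fold higher (log2 bound of 1.09). Probe set 38037_at had 89.9 with let-7i and 25.01 with the empty vector, and its bound of 0.03 says little, since the let-7i signal lies just above the floor. Both probe sets passed the floor with let-7i and neither did with the empty vector. The other probe sets, 244857_at (39.6 with let-7i and 60.6 with the empty vector) and 222076_at (6.15 with let-7i and 9.18 with the empty vector), were below the floor on both arrays. The call of HBEGF rests on dim signals. With the 25th percentile as floor the first 2 probe sets were measured on both arrays, and the log2 ratios were 1.67 for 203821_at and 1.86 for 38037_at. A floor at the 65th percentile left HBEGF with no ratio. The mean of the 2 bounds, 0.58 after centring anew, is itself a bound and no smaller ratio.

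NRG1, a neuregulin that binds ERBB3 and ERBB4, was measured by 1 of its 6 probe sets. Probe set 206343_s_at had 337 with let-7i and 251 with the empty vector, 1.34-fold higher (log2 ratio of 0.42, against an SD of 0.26), and 7.64% of the genes measured on both arrays had a ratio as high or higher. The other 5 were below the floor on both arrays. Of these, 208230_s_at (63.8 with let-7i and 14.6 with the empty vector) and 206237_s_at (51.5 with let-7i and 6.93 with the empty vector) had the larger gaps, 208241_at had 63.5 with let-7i and 55.2 with the empty vector, and 208232_x_at (57.4 with let-7i and 66.5 with the empty vector) and 208231_at (3.27 with let-7i and 9.60 with the empty vector) were dimmer with let-7i.

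TGFA, transforming growth factor alpha, a ligand of EGFR, was lower in its brightest probe set. Probe set 205016_at had 585 with let-7i and 783 with the empty vector, 1.34-fold lower (log2 ratio of -0.42, against an SD of 0.20), and 9.70% of the genes had a ratio as low or lower. Probe set 211258_s_at had 129.8 with let-7i and 132 with the empty vector, a log2 ratio of -0.03. The second probe set thus did not show the difference of the first. Probe set 205015_s_at was below the floor, with 37.4 with let-7i and 11.3 with the empty vector.

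EREG, epiregulin, and BTC, betacellulin, both ligands of EGFR and ERBB4, were below the floor in every probe set. For EREG, 205767_at had 70.3 with let-7i and 45.9 with the empty vector, and 1569583_at had 7.29 with let-7i and 5.73 with the empty vector. For BTC, 241412_at had 34.1 with let-7i and 14.3 with the empty vector, and 207326_at had 4.62 with let-7i and 5.70 with the empty vector. No fold is given for them at this floor, which is a chosen percentile and not a detection limit. With the 25th percentile as floor EREG had a log2 ratio of 0.63 at these dim signals and BTC, which then passed the floor with let-7i alone, a bound of 0.63.

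**Figure D3:**
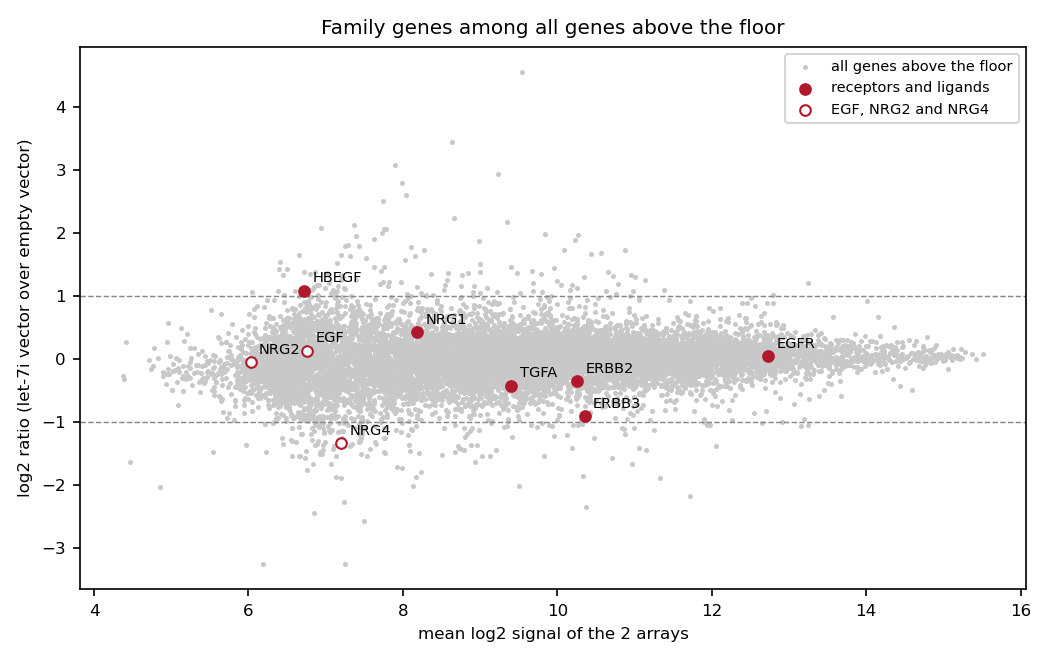
Log2 ratio (let-7i vector over empty vector) against the mean log2 signal of the 2 arrays for the 12284 genes that passed the floor on 1 or both arrays, 1 point per gene, with the family marked and dashed lines at 2-fold. HBEGF (1.09, a bound) and NRG4 (-1.34) lie beyond the lines at the dim end, ERBB3 (-0.91) lies near the lower line, and EGFR (0.05) lies near 0 at the bright end.

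The receptor and ligands outside the member list were mostly dim. NRG4, a neuregulin that binds ERBB4, had 92.9 with let-7i and 234 with the empty vector in its 1 probe set, a 2.53-fold lower level (log2 ratio of -1.34). Its ratio was -0.14 where the floor was the 65th percentile, which lies above its let-7i signal. EGF, the ligand the family is named after, had 114 with let-7i and 103 with the empty vector, a log2 ratio of 0.13. NRG2 had 85.0 with let-7i and 50.1 with the empty vector, a bound that leaves its direction open. ERBB4, the second neuregulin receptor, had 23.2 with let-7i and 41.3 with the empty vector in its brightest probe set and NRG3 had 7.67 with let-7i and 27.2 with the empty vector, all below the floor. Of the 4 receptors, EGFR, ERBB2 and ERBB3 were therefore measured and ERBB4 was not.

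Stretches of 100 bases just before the transcription start are shown for a receptor that was measured on both arrays, for the ligand with the highest ratio and for a ligand below the floor. They are from RefSeq (GRCh38.p14), 5′ to 3′ on the gene's strand, at chr7:55018917-55019016 (plus strand) for the first of the 2 listed starts of EGFR, chr5:140346604-140346703 (minus strand) for HBEGF and chr4:74365045-74365144 (plus strand) for EREG. Capitals mark GGGCGG, the GC box motif, and TATAAA, the core motif of the TATA box, each searched on both strands with overlaps counted.
EGFR: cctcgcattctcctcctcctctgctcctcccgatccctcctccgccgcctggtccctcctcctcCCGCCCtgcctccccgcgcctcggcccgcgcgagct
HBEGF: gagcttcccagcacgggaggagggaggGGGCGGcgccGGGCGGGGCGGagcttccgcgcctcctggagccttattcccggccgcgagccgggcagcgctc
EREG: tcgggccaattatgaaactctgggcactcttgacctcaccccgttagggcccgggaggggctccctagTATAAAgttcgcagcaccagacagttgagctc
The HBEGF stretch held 3 GC boxes, 2 of which overlap, and the EGFR stretch held 1. Of 35116 promoter stretches of this length in RefSeq, 31.3% held at least 1. The EREG stretch held TATAAA 32 bases before the start, a motif found in 4.99% of all stretches. EREG lies on chromosome 4 in a row with EPGN, AREG and BTC, and the stretches of EPGN and AREG also held TATAAA, 29 bases before the start in both, while that of BTC did not. The AREG stretch held 1 GC box as well. That of the second EGFR start, not shown, held TATAAA 36 bases before the start and no GC box. Promoter stretches were found for 8 of the 10 members. A motif here is a description of the letters and was not linked to the signals.

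The pathway around the receptors was described by 5 lists of genes. In the shedding list, which holds proteases that free the ligands and their regulators, 11 genes passed the floor. Of these 7 were higher and 4 lower, against 48.7% of all genes higher, and the median log2 ratio was 0.10. At least 2-fold lower was 1 gene, against 1.38% of all genes. That gene was TIMP3, which inhibits ADAM17 among other metalloproteinases, with 586 with let-7i and 2987 with the empty vector (log2 ratio of -2.35). RHBDF2, a pseudoprotease that carries ADAM17 to the surface, had 434 with let-7i and 249.8 with the empty vector, 1.73-fold higher. ADAM19 (145 with let-7i and 85.9 with the empty vector) was at least 1.65-fold higher in its brighter probe set, but its other one, measured on both arrays, had a log2 ratio of -0.21. ADAM12 (117 with let-7i and 184 with the empty vector) was 1.57-fold lower. ADAM17 itself, named after its values were seen as the main protease of TGFA and HBEGF, had 899 with let-7i and 883 with the empty vector, a log2 ratio of 0.02.

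Among the adaptors and effectors that bind the activated receptors, 20 genes were measured, 10 higher and 10 lower, with a median of -0.06. None was past 2-fold, against 1.06% of all genes past 2-fold higher and 1.38% past 2-fold lower. Of all genes, 48.7% were higher, so these counts do not set the adaptors apart. The largest absolute log2 ratios were lower ones. GRB7, an adaptor that binds ERBB2 and ERBB3, had 629 with let-7i and 914 with the empty vector (log2 ratio of -0.54). GAB1, a docking protein of EGFR, had 332 with let-7i and 479 with the empty vector (-0.53) with 4 probe sets from -0.97 to -0.17. VAV3, a guanine nucleotide exchange factor, had 1719 with let-7i and 2394 with the empty vector (-0.48), and PIK3R3, a regulatory subunit of PI3-kinase, had 554 with let-7i and 737 with the empty vector (-0.41).

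Of the 26 measured genes that restrain or traffic the receptors, 19 (73.1%) were higher and 7 lower, against 48.7% of all genes higher. The median was 0.16, with none past 2-fold, against 1.06% of all genes past 2-fold higher and 1.38% past 2-fold lower. This list was also chosen with earlier results of these data known, so it is no independent evidence of its direction. SPRY2, an inhibitor of signalling to ERK, had 566 with let-7i and 354 with the empty vector (log2 ratio of 0.67), and SPRED1, a second inhibitor of that path, had 999.7 with let-7i and 676 with the empty vector (0.56). ERRFI1, which binds and inhibits the EGFR kinase, had 2674 with let-7i and 1861 with the empty vector (0.52). RNF41, a ubiquitin ligase that marks ERBB3 for degradation, had 257 with let-7i and 354 with the empty vector (-0.47) with 3 probe sets from -0.47 to -0.08. Among the partners at the membrane 7 of 10 were higher and 3 lower, against 48.7% of all genes higher, and the median was 0.11. CD9, a tetraspanin that binds the HBEGF precursor, had 1386 with let-7i and 2270 with the empty vector (-0.71). This was the largest absolute log2 ratio of the list. MUC4, a mucin that binds ERBB2, was 1.31-fold higher, but its 3 measured probe sets ranged from -0.77 to 0.39. MUC1 was 1.29-fold higher with 3 probe sets from -0.52 to 0.37, and CD44, which presents HBEGF, was 1.27-fold higher with 12 from -0.20 to 0.35.

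Genes that ERK signalling is known to induce were mostly higher, 14 of 15 above the floor, against 48.7% of all genes higher. The list median was 0.40, against -0.01 for all genes, and 1 gene was past 2-fold higher, against 1.06% of all genes. The median was 0.22 after quantile normalization and 0.24 without probe sets shared between transcripts. DUSP6, an ERK phosphatase, had 588 with let-7i and 247 with the empty vector (log2 ratio of 1.25). FOSL1, an AP-1 subunit, had 7372 with let-7i and 3953 with the empty vector (0.90), ETV5, an ETS factor, had 1230.0 with let-7i and 677 with the empty vector (0.86) with 4 probe sets from 0.32 to 1.25, and JUN, an AP-1 subunit, had 4386 with let-7i and 2849 with the empty vector (0.62) with 4 probe sets from 0.03 to 0.62. The list was put together with the shift of ERK response genes in these arrays known, so it is no independent evidence of its direction.

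**Figure D4:**
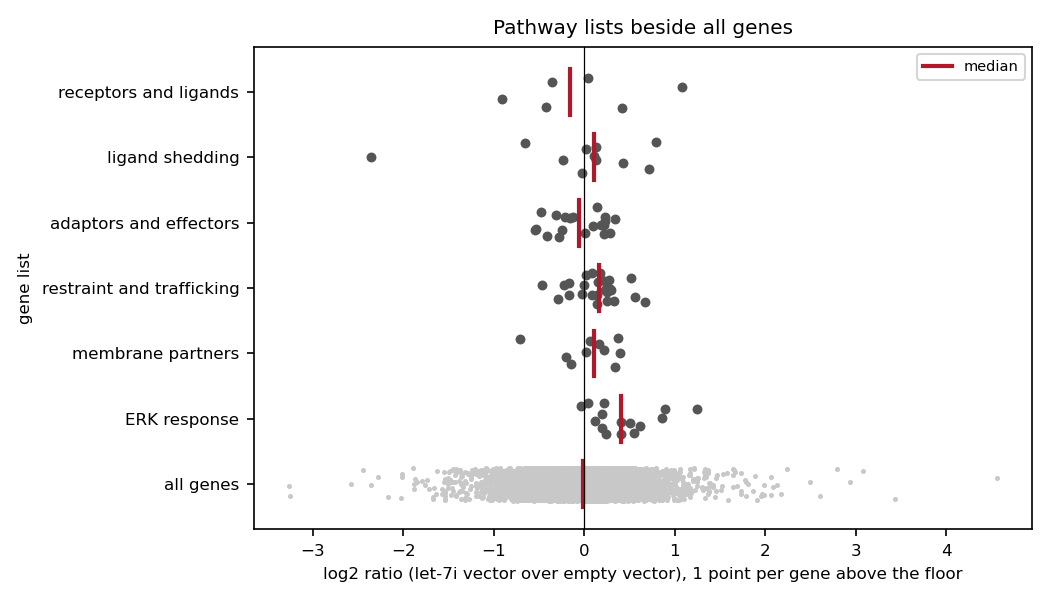
Log2 ratio (let-7i vector over empty vector) of each gene above the floor in the family, in the 5 pathway lists and in all genes, with a red bar at the median (vertical spread is for legibility). The medians lie between -0.15 for the family and 0.40 for the ERK response list, and the point at -2.35 in the shedding list is TIMP3.

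Markers of cell types were set beside these results. Of the 7 epithelial markers with a probe set, not all of them particular to squamous cells, EPCAM, CDH1, DSP and SFN were above the floor. EPCAM had 6690 with let-7i and 10912 with the empty vector. KRT5, KRT14 and DSG3 were below the floor on both arrays, 2 defining basal keratins among them. EPCAM and CDH1 were lower with let-7i, like ERBB3, and DSP and SFN were 1.07-fold and 1.01-fold higher. The signals of the 7 summed to 36238 with let-7i and 41364 with the empty vector. Of 8 fibroblast markers DCN and COL1A1 were above the floor and both were higher with let-7i in their brightest probe set. DCN was measured on both arrays in 1 of 7 probe sets (log2 ratio of 0.98) and COL1A1 in 2 of 5 (0.08 to 0.26). The remaining fibroblast markers were below the floor in their brightest probe set, and the 8 summed to 946 with let-7i and 699 with the empty vector. Of 5 leukocyte markers CD3E alone was above the floor, with 90.4 with let-7i and 173 with the empty vector, a log2 ratio of -0.94 at dim signals, where that of ERBB3 was -0.91. Of 5 endothelial markers PECAM1 alone was above the floor, with a log2 ratio of 0.22 in its brightest probe set. Its 3 measured probe sets ranged from -0.28 to 0.22. The leukocyte markers summed to 267 with let-7i and 286 with the empty vector and the endothelial ones to 474 with let-7i and 424 with the empty vector, signals below the floor included, as in the sums above. PTPRC, CDH5, VWF and COL1A2 were below the floor, and no marker was listed at 0. The part of any of these in the ratios of ERBB3 and HBEGF was not tested.

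**Figure D5:**
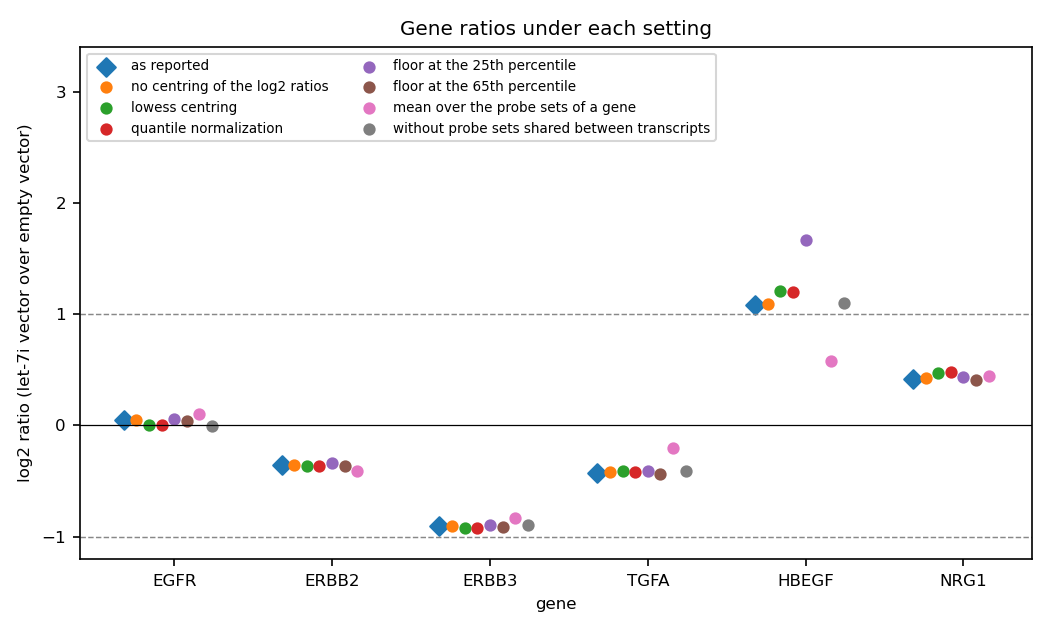
Log2 ratio (let-7i vector over empty vector) of the 6 member genes above the floor, as reported (diamonds) and under each other way of scaling, setting the floor or choosing probe sets (circles), with dashed lines at 2-fold. ERBB3 stays between -0.92 and -0.83 and ERBB2 between -0.41 and -0.34, while the HBEGF points are bounds, down to 0.58 for the mean of 2 bounds, except the ratio of 1.67 with the lowest floor, and HBEGF has no value with the highest floor.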

How the data were processed

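Total RNA of the 2 OECM1 lines was labelled with biotin as cRNA, per the labels' protocols. The authors deposited signal intensities on a linear scale, 1 for each probe set on each array, and MAS5 is the tool named in the submitters' processing notes, with no version or settings. The mean after trimming 2% at each end was 500.1 on both arrays, so the scale removes differences in total RNA. The number of arrays limits the precision.

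Of 54675 probe sets, 41097 carried 1 gene symbol in the platform annotation, 1801 several and 11777 none, and the first were used. Signals below an array's 50th percentile were set to it. Log2 ratios were centred on their median over 11140 genes measured on both (a shift of 0.0036). The probe set with the highest mean of the log2 signals stood for a gene. Calls were by size alone, at 2-fold, with no test. The named genes were all members, the remaining family genes, and per list the 4 largest absolute ratios and all past 2-fold. ADAM17, EGR1 and FOS were added after their values were seen. Members and lists were chosen with earlier results of these data known. Of the lists, 3 adaptors (CRK, PIK3CA, PIK3R2), PTPRJ and 4 cell markers had no probe set of their own. Settings tried were no centring, quantile normalization, lowess (fraction 0.3, 3 iterations), the 25th and the 65th percentile as floor, means over probe sets, no probe sets ending in _s_at or _x_at, and 1.5-fold and 3-fold thresholds. The procedure was tested on simulated data, with changes larger than 2-fold set in genes well above the floor on both arrays. Bounds at dim signals and calls near 2-fold were not covered by this test. Its noise was the same at all signals and lower than the probe noise of 0.25 over all genes. Matplotlib 3.10.9, statsmodels 0.14.6, pandas 2.3.3 and NumPy 2.4.6 were run in Python 3.11.15.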

Additional observations from a re-analysis of the deposited data

How the results depend on the processing

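ERBB3, ERBB2, TGFA and NRG1 kept their direction under every setting that gave them a value, with ranges of -0.92 to -0.83, -0.41 to -0.34, -0.43 to -0.20 and 0.41 to 0.48, and ERBB2 and NRG1 had no value without shared probe sets. EGFR ranged from -0.003 to 0.099, and HBEGF, a bound in most settings, was measured at 1.67 with the 25th percentile as floor and had no value with the 65th. Its 0.58 with means over probe sets is a mean of 2 bounds. The count of member probe sets at least 2-fold higher was 4 with the 25th percentile as floor (2 of HBEGF and 2 of NRG1), 0 with the 65th and 0 at 3-fold. The count at least 2-fold lower was 0 without probe sets shared between transcripts, 3 at 1.5-fold and 0 at 3-fold. The median over member genes was 0.249 with the 25th percentile as floor, which takes in EREG and BTC, so that all 8 genes have a value, -0.36 with the 65th and -0.05 with means over probe sets. NRG4 was -0.14 with the 65th percentile as floor. Past 2-fold were 130 genes higher and 169 lower in the whole table, against 654 and 1113 with the lower floor and 62 and 71 with the higher one. At 1.5-fold they were 514 and 728, and at 3-fold 34 and 24. The medians of the shedding list (-0.03 to 0.11) and of the adaptor list (-0.06 to 0.04) took either sign. Those of the restraint (0.10 to 0.17), partner (0.07 to 0.17) and ERK response (0.22 to 0.41) lists stayed above 0. No paired analysis was possible because each group has 1 array. Signal over the floor limits HBEGF, NRG4, EREG, BTC and 5 NRG1 probe sets.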
